A study of Mus musculus with 2 samples.

Results

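The proximal intergenic regions are stretches of open chromatin that lie between protein-coding genes, at least 1 kb and at most 10 kb from the nearest transcription start. Mouse T helper 2 (Th2) cells, the CD4 T cells of type 2 immunity, were profiled by ATAC-seq, which tags accessible DNA with a transposase. The study has 1 group of 2 biological replicates of primary Th2 cells from the strain C57BL/6NJ, with no control and no second cell type. Overlapping peaks of the 2 replicates were joined, and a joined region present in both was kept when its centre lay outside every protein-coding gene body and within that distance of the nearest protein-coding start. This left 2925 regions out of 44058 shared regions on the 21 main chromosomes, or 6.64%. The other shared regions were 12102 within 1 kb of a start, 17395 in gene bodies, 8790 intergenic regions 10 to 100 kb from a start and 2846 beyond 100 kb. The working name of the set was intergenic regions upstream of genes, but the distance rule does not ask for a side. By the direction of the nearest gene 2431 regions (83.1%) lay upstream of its start and 494 (16.9%) lay downstream, past the end of a gene.

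Both replicates are given the same donor record, so whether separate animals were used is not known, and differences between the replicates may be technical. Sex and age are not given. With 1 group and no control no test between conditions could be made, and regions of a library are not replicates, so every value below is a description of these 2 lists. The lists held 51557 peaks covering 34 Mb in replicate 1 and 60891 peaks covering 38.6 Mb in replicate 2. The median count at the summit, recovered from the deposited values, was 31 and 37 over all peaks of the lists, shared or not. Over all shared regions it was 37 and 52, and over the proximal intergenic regions 34 and 47. The labelled cell type was checked on promoters. Cd3e, Cd4, Gata3, Il4, Il13, Il5 and Tbx21 had an open promoter, and Ifng, Cd8a, Ncr1, Ms4a1, Lyz2 and Adgre1 did not. Tbx21 is a regulator of T helper 1 (Th1) cells, so its open promoter does not go with the label. Of the 18 Th2 genes listed below, Il10, Il1rl1 and Ptgdr2 had no open promoter, while 12 of 15 Th1 genes had one. The check thus does not set Th2 apart from Th1 cells.

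Open chromatin outside promoters marks sites where transcription factors displace nucleosomes, and many such sites are enhancers or boundaries. In activated T cells AP-1, which joins Fos, Jun and Batf proteins, binds many sites together with Runx and Ets factors, while CTCF binds its own long sequence and organises chromatin loops. A region close to a gene need not act on that gene, so the nearest gene is used here only as an address.

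Windows of 200 bp at the replicate 1 summit are printed for 7 of the regions, since they carry the sequences whose shares are given below. They were read from the plus strand of the GRCm38 (mm10) genome of NCBI RefSeq, the build of all coordinates given here, which count from 1. Capitals mark matches, on either strand, to the consensus sequences of 8 kinds of factor. AP-1 was searched as TGAGTCA. RUNX factors, which bind DNA through the Runt domain, were searched as TGTGGTT. ETS factors were searched as CAGGAAGT and as CCGGAAGT. STAT proteins, which act below cytokine receptors, were searched as TTCNNNGAA and as the same letters with 4 free bases. GATA factors were searched as AGATAA. NFAT, the factor that calcium signalling activates, was searched as TGGAAAA. The GC box of Sp and Klf proteins, common at promoters, was searched as GGGGCGG, and CTCF by its 12-base core consensus. The first 4 windows lie near genes of cytokines and of a cytokine receptor, Cd69 and Gip show strong regions beside an open and a closed promoter, and Cebpe shows a CTCF match.
Il4ra (chr7:125543554-125543753): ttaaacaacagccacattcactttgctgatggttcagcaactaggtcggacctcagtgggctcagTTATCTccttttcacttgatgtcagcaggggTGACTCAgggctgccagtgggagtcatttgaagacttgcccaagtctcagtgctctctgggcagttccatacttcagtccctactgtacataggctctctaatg
Il24 (chr1:130894623-130894822): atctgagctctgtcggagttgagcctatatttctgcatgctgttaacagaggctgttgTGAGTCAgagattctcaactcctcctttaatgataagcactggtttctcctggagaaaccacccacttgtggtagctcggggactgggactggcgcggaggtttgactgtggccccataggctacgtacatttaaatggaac
Il10 (chr1:131010525-131010724): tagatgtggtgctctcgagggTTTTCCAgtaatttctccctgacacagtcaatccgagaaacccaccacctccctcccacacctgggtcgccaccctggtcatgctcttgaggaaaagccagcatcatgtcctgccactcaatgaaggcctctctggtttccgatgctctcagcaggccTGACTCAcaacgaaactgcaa
Il5 (chr11:53726755-53726954): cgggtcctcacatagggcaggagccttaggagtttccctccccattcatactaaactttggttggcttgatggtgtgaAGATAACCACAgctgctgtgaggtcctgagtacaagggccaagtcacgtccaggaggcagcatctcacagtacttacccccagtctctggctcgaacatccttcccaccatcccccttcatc
Cd69 (chr6:129284494-129284693): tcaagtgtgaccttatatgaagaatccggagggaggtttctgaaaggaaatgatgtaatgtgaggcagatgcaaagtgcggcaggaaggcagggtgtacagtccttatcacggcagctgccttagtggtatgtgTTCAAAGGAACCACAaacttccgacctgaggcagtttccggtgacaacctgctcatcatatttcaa
Gip (chr11:96018120-96018319): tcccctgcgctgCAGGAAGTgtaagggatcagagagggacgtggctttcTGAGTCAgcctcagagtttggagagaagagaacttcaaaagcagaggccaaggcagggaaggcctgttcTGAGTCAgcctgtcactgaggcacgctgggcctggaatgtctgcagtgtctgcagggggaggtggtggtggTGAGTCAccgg
Cebpe (chr14:54714129-54714328): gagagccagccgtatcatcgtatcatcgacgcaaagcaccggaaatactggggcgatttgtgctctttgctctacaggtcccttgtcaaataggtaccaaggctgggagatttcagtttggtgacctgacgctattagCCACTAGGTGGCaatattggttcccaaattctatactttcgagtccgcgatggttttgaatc
The windows at Il4ra, Il24 and Il10 each held 1 AP-1 match, at bases 97 to 103, 59 to 65 and 180 to 186 of the window. The window at Gip held 3 AP-1 matches and 1 ETS match. In the window downstream of Il5 a GATA match (bases 79 to 84) and a RUNX match (bases 83 to 89) shared letters. In the window at Cd69 a STAT match (bases 135 to 144) and a RUNX match (bases 143 to 149) did so. A match says that the letters are present and not that the factor was bound.

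The proximal intergenic regions were denser than the open chromatin farther out and weaker than promoters. Counted per Mb of sequence that could hold such a region, there were 19.6 regions per Mb over 149 Mb, against 225 per Mb within 1 kb of a start, 17.3 in gene bodies, 15.0 at 10 to 100 kb and 3.05 beyond 100 kb. Their median width was 612 bp (25th to 75th percentile 434 to 858 bp), against 1162 bp within 1 kb of a start, 616 bp in gene bodies and 632 bp at 10 to 100 kb. The fold enrichment, the authors' value of signal over local background at the summit, had a median of 5.15 in replicate 1 and 5.82 in replicate 2. The region names carry the word insert, and whether genomic fragments or cloned inserts were sequenced is not known, which bears on every fold given here. The same medians were 9.22 and 10.4 within 1 kb of a start, 5.38 and 6.14 in gene bodies, 5.73 and 6.55 at 10 to 100 kb and 6.16 and 6.66 beyond 100 kb. The proximal regions thus had the lowest median fold of the 5 positions in both replicates, by a margin that was small against the spread of single regions, as the boxes of fold enrichment and width by position show. The recovered summit counts gave another order. Their medians were 34 and 47 at the proximal regions, 30 and 42 in gene bodies, and 30 and 40 at 10 to 100 kb. They were also 30 and 40 beyond 100 kb, and 78 and 109 within 1 kb of a start. The lowest fold thus did not go with the lowest count.

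**Figure D1:**
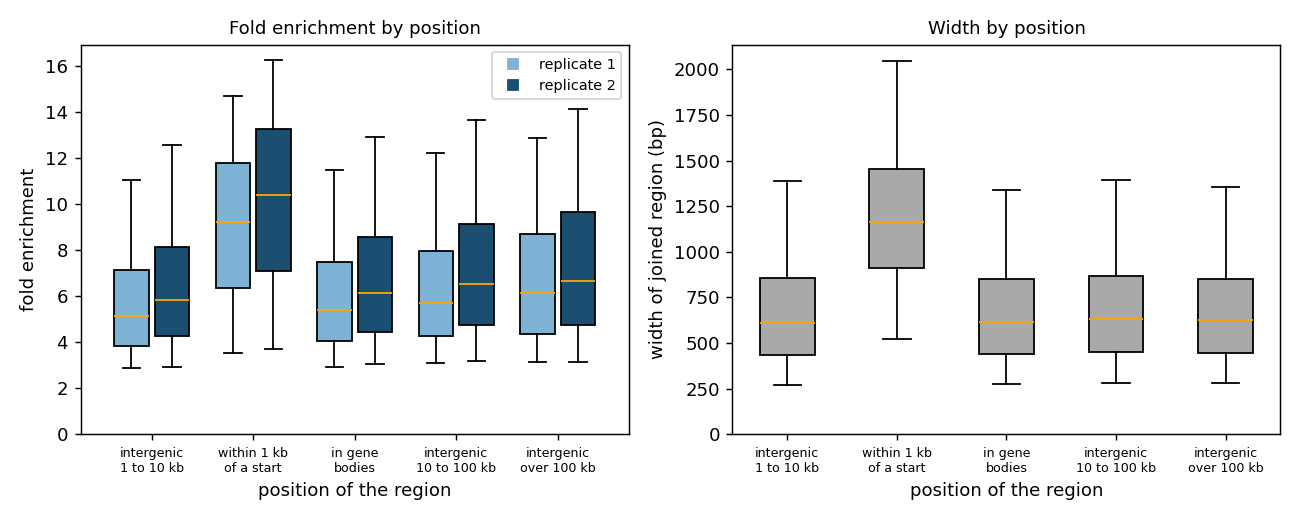
Fold enrichment per replicate (left, authors' value) and width in bp (right) of shared regions by position. Boxes span the 25th to 75th percentiles with the median as a line, and whiskers reach the 5th and 95th. The proximal intergenic regions (5.15 and 5.82) sit lowest in fold enrichment, and regions within 1 kb of a start are the strongest and widest.

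The replicates ordered the regions alike, with noise. Fold enrichment ran from 1.68 to 20.01 in replicate 1 and from 1.75 to 20.6 in replicate 2, and 69.2% of the regions were higher in replicate 2. The ratio of replicate 2 to replicate 1 had a median of 1.11 and lay between 0.757 and 1.68 for regions from the 5th to the 95th percentile. Across regions, which share their libraries, Spearman's rho between replicates was 0.834 here and 0.944 within 1 kb of a start. The summits of the replicates lay a median of 28 bp apart. Of the replicate 1 peaks that met the position rule on their own, 2975 of 3481 (85.5%, Wilson 95% interval 84.3 to 86.6) overlapped a replicate 2 peak, and of the replicate 2 peaks 2976 of 4335 (68.7%, 67.3 to 70.0) overlapped a replicate 1 peak. The same shares were 85.2% and 70.7% at 10 to 100 kb and 96.7% and 94.2% within 1 kb of a start. The peaks found in 1 replicate alone had median folds of 3.17 and 3.45, against 5.12 and 5.77 for the shared ones. These intervals cover counting error only.

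Density did not fall away evenly with distance from the start. Upstream it was 20.8 regions per Mb at 1 to 2 kb, 16.9 per Mb at 4 to 5 kb and 23.3 per Mb at 8 to 9 kb. Upstream, fold enrichment was lowest next to the promoter. The median was 4.36 and 4.74 in the 2 replicates at 1 to 2 kb, 5.47 and 6.23 at 5 to 6 kb, and 5.73 and 6.51 at 8 to 9 kb. Downstream the medians showed no such order, with 5.70 and 6.29 over the 14 regions at 1 to 2 kb and the lowest values, 4.54 and 4.92, at 4 to 5 kb. A far side within 10 kb calls for a short gene or for a transcript start near the end of a longer one. The nearest genes of downstream regions had a median length of 3.80 kb, against 22.4 kb for the nearest genes of upstream regions and 17.4 kb for all genes. Over all distances the density was 19.97 per Mb upstream and 18.02 per Mb downstream. Gaps between divergent genes held 1102 regions (21.5 per Mb), gaps between genes in tandem 1552 (18.2 per Mb) and gaps between convergent genes 269 (21.9 per Mb). The distance itself had a median of 5603 bp, and 447 regions (15.3%) had starts of at least 2 genes within 10 kb. The next shared region was a median of 5.32 kb away, and within 2 kb for 543 regions (18.6%).

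**Figure D2:**
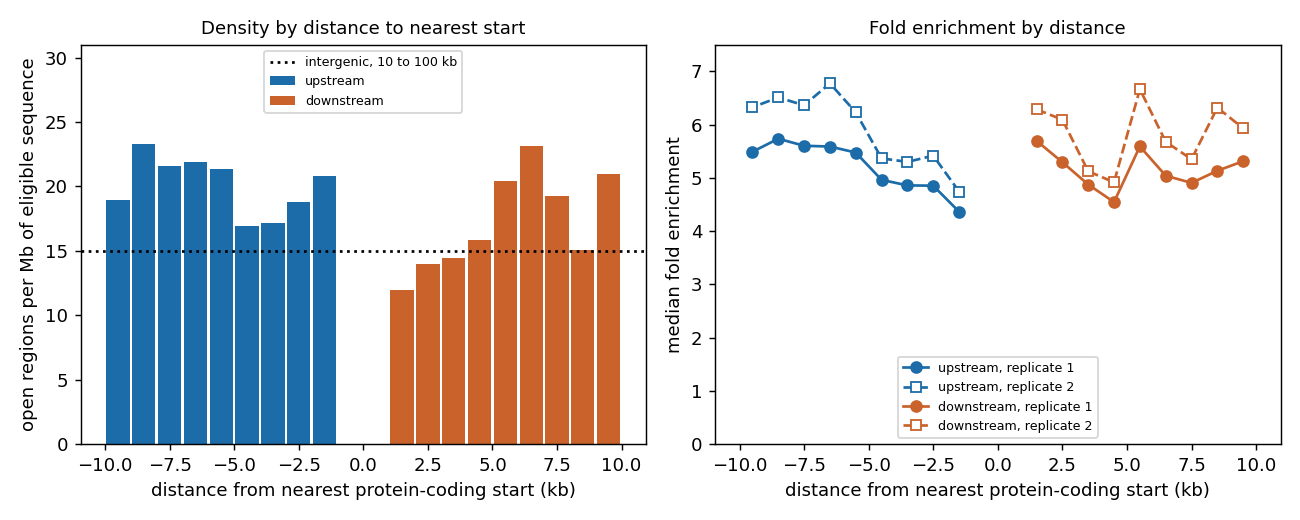
Shared regions per Mb of eligible sequence (left) and median fold enrichment per replicate (right) by distance from the nearest protein-coding start in kb, with upstream as negative. The dotted line is the density of intergenic regions at 10 to 100 kb (15.0 per Mb). The lowest upstream medians of fold enrichment are those at 1 to 2 kb (4.36 and 4.74).

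Just outside the 1 kb limit, regions at 1002 bp from the starts of Adamts6 and Zfp516 had folds of 8.21 and 9.03 and of 3.68 and 3.99 in the 2 replicates. Just inside it, regions at 999 bp from Lair1 (4.62 and 5.43) and 996 bp from Coro6 (3.03 and 4.16) were counted as promoter regions and not as proximal ones. At the far limit, Eps8l3 at 10000 bp (6.82 and 8.45) and Fosb at 9998 bp (6.03 and 6.95) were kept, while Mgll at 10001 bp (4.17 and 5.98) and Rcsd1 at 10005 bp (4.61 and 5.22) were not. The centre decided, so 109 of the regions reached with an edge to within 1 kb of the nearest start.

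The proximal regions gathered beside open promoters. The 2925 regions had 2471 nearest genes, 11.3% of the 21851 protein-coding genes. A promoter was called open when a shared region other than a proximal one overlapped the 1 kb on either side of any start of that gene, and closed when none did. The value of an open promoter is that of the strongest such region. The promoter was open for 1798 of the nearest genes (72.8%), where 58.1% of all protein-coding genes had an open promoter. The nearest genes of regions at 10 to 100 kb reached 75.6% and those of regions in gene bodies 78.7%. The excess over all genes was thus not seen at proximal regions alone. Counted over regions, 2148 of 2925 (73.4%, Wilson 95% interval 71.8 to 75.005) had an open nearest promoter and 777 did not. The share was 75.8% upstream and 61.9% downstream, and it was 82.9% in the weakest 20% of the regions by fold enrichment and 67.2% in the strongest 20%. Of genes with an open promoter 14.2% were the nearest gene of a proximal region, and of genes without 7.36%.

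Genes leave unequal amounts of sequence free around them, so density was also counted per Mb. There were 30.3 regions per Mb over the 70.8 Mb whose nearest promoter was open and 9.92 per Mb over the 78.3 Mb whose nearest promoter was not, a ratio of 3.06. Upstream the densities were 27.5 and 13.2 per Mb at 1 to 2 kb, 23.0 and 11.6 at 2 to 5 kb, and 33.5 and 8.39 at 5 to 10 kb. Downstream they were 44.3 and 9.17 per Mb. The gap between open and closed promoters was widest downstream and, of the upstream bins, at 5 to 10 kb, and each bin showed it in the same direction.

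**Figure D3:**
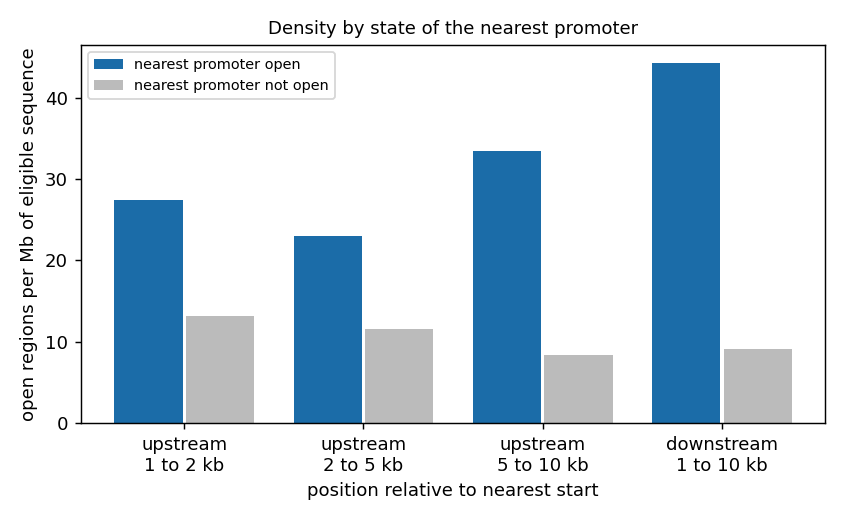
Proximal intergenic regions per Mb of eligible sequence (bars from 0), by position and by whether the nearest protein-coding promoter was open in both replicates. Density is higher beside open promoters in all 4 positions, from 23.0 against 11.6 per Mb at 2 to 5 kb upstream to 44.3 against 9.17 per Mb downstream.

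Where the promoter was open, the proximal region was mostly the weaker of the pair. Median folds were 5.05 in replicate 1 and 5.62 in replicate 2 at the proximal regions, against 7.81 and 8.69 at their promoters, and the median ratio within pairs was 0.675 and 0.672. In 443 pairs (20.6%) the proximal region exceeded its promoter in both replicates. The regions with the largest ratios lay near Traf1, Nrp1, Zbtb18, Tlcd2 and Dgkg. Traf1, an adaptor of TNF receptors, had folds of 10.2 and 12.0 at a region 1.77 kb upstream, against 2.27 and 2.52 at its promoter. Zbtb18, a zinc finger repressor, had 15.1 in both replicates at 2.40 kb upstream, against 3.29 and 3.69 at its promoter. Nrp1, a semaphorin receptor, had 11.6 and 11.4 at 7.66 kb upstream, against 3.07 and 2.14. At each of these 3 genes the replicates differed by less than the region and promoter did. The proximal regions with no open promoter were not weak, with median folds of 5.59 and 6.32. That class includes wide regions that themselves run up to the start: counting the proximal regions as promoter regions where they do so raised the genes with an open promoter to 12750, against 12701.

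The strongest regions stood beside genes of many kinds, several of them with closed promoters. The 10 strongest by mean rank lay near Cd209a, Gm13283, 4931406P16Rik, Plekhf1, Gip, Rpn1, Trappc9, Dcpp3, 2410137M14Rik and Arl4d. The strongest, 310 bp wide at chr8:3754400-3754709 and 5.57 kb upstream of the dendritic-cell lectin gene Cd209a, had folds of 20.01 and 20.6. The region 2.52 kb upstream of Gm13283, at chr4:88757089-88758113, had 19.997 and 19.1, and its centre lay 22 bp from the start of the lncRNA gene Gm13274. Gip, which encodes an incretin hormone of the gut, had 16.2 and 16.9 at chr11:96017843-96018351, 6.45 kb upstream. No open promoter was found at Cd209a, Gm13283, Gip, Dcpp3 or 2410137M14Rik, the 5 strongest of that kind. Beside open promoters, Rpn1, a subunit of the oligosaccharyltransferase, had 16.1 and 16.3 at 9.14 kb upstream, and Trappc9, a trafficking complex subunit, had 15.6 and 16.5 at 6.41 kb upstream. At the regions whose folds are given above the replicates lay close together, while the region near 4931406P16Rik had 16.3 and 19.6.

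Width picked out other places. The widest region, 17174 bp at chr9:3000010-3017183 near Gm11168, was 97.0% repeat sequence by the soft-masking of the genome and had folds of 12.9 and 13.5. The next widest lay upstream of Arid2 (4024 bp), Ssbp4 (3913 bp), Egr3 (3117 bp) and Chrm4 (3078 bp). The Egr3 region, 1.15 kb from the start of this activation-induced zinc finger gene, had folds of 7.77 and 7.14 and is wide enough to run over that start. More than 50% of the sequence was repeat in 123 regions (4.21%), against 1.86% of all shared regions. The share was 2.83% at 10 to 100 kb, 2.42% beyond 100 kb, 2.11% in gene bodies and 0.0909% within 1 kb of a start. The proximal regions thus had the highest share of the 5 positions. The median repeat content was 11.9%, against 9.05% over all shared regions.

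Genes of the Th2 programme had proximal regions in 9 of 18 cases, and 15 regions in all, 7 upstream and 8 downstream. Over all protein-coding genes the share was 11.3%, and over those with an open promoter it was 14.2%. Il4, Gata3, Maf, Stat6, Pparg, Il1rl1, Ptgdr2, Areg and Rnf128 were the nearest gene of none. The 15 regions had median folds of 3.99 and 5.36, against 5.15 and 5.82 over all proximal regions, and were thus not stronger than the rest.

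The strongest of them lay upstream of Il24, Il4ra and Il10. Il24 encodes a cytokine of the IL-10 family, and the region at chr1:130894387-130895200, 7.34 kb upstream, had folds of 13.2 and 12.7, against 6.12 and 5.98 at its promoter. Il4ra encodes the receptor chain for IL-4 and IL-13, and its region at chr7:125543251-125543915, 8.54 kb upstream, had 9.87 and 9.86, against 4.75 and 4.88 at the promoter. In both genes the distal region exceeded the promoter in both replicates. Il10, a cytokine that restrains inflammation, had no open promoter but 3 proximal regions. The upstream region at 9.18 kb had folds of 10.2 and 8.07, the downstream region at 6.11 kb 3.05 and 3.28, and the downstream region at 9.65 kb 5.05 and 5.36. The replicate spread at the first of these was wider than at Il24 or Il4ra, and all its values stayed above those of the other 2 regions.

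The cytokine genes Il13 and Il5, both in the type 2 cytokine locus on chromosome 11, held 5 proximal regions. Il13 had 1 region 1.47 kb upstream with folds of 3.99 and 5.60, and 2 downstream, at 4.32 kb (2.36 and 2.34) and 7.22 kb (5.83 and 5.05). Its promoter had 2.60 and 2.76. The upstream and the farther downstream region of Il13 were therefore above its promoter in both replicates, and the nearer downstream region was below it. The upstream region itself reached with an edge to within 1 kb of the start, and was left out of the promoter value only because it is a proximal region. Il5 had a region 3.95 kb upstream with 3.76 and 4.97 and a region 6.01 kb downstream with 8.04 and 7.59, against 8.20 and 9.13 at its promoter. The chemokine receptor gene Ccr4 had a 2096 bp region 8.06 kb downstream with 7.76 and 9.07, against 6.04 and 7.51 at the promoter. The remaining Th2 list regions were weaker than their promoters. Ccr8, another chemokine receptor, had 3.27 and 3.75 at 6.77 kb downstream, and the repressor Bhlhe41 had 3.20 and 4.26 at 9.33 kb downstream. Gfi1, a zinc finger repressor, had 3.09 and 3.33 at 5.74 kb upstream and 3.15 and 5.43 at 9.11 kb upstream, and the second of these differed clearly between replicates.

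Activation genes had proximal regions most often of the 16 lists. Of 18 genes, 15 had at least 1 region (83.3%), with 26 regions, 23 of them upstream. Cd69, a lectin induced early on activation, had folds of 13.6 and 17.95 at 9.25 kb upstream, against 9.69 and 10.2 at its promoter. The nuclear receptor gene Nr4a1 had 13.3 and 16.9 at 7.57 kb upstream, against 8.67 and 9.48 at its promoter. Nr4a3, of the same family, had 8.44 and 8.96 at 1.95 kb upstream, against 4.45 and 3.94 at its promoter. All 3 exceeded their promoters in both replicates, while the median over the 26 regions was 4.26 and 4.67. Among the 17 AP-1, NFAT and NF-kB genes, 8 had 13 regions. Nfkb1 had 8.62 and 9.59 at 8.93 kb upstream, against 3.09 and 4.47 at its promoter. Of 15 JAK and STAT genes 6 had a region.

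The lists of general T cell genes and of other T cell states also stood above the 11.3% of all genes. The counts were 11 of 17 pan-T genes, 6 of 10 follicular helper, 6 of 12 regulatory, 6 of 15 Th1, 5 of 13 Th17 and 4 of 11 naive and memory genes. Thy1, a surface glycoprotein of T cells, had 4 regions, more than any other gene of the lists. Those at 9.16, 3.31 and 2.17 kb upstream had 5.48 and 7.19, 3.69 and 5.67, and 6.58 and 6.61, and that 3.36 kb downstream had 6.27 and 6.72. Its promoter had 3.61 and 3.48, below all 4 in both replicates. Il7r, the IL-7 receptor chain, had 12.2 and 12.6 at 5.76 kb upstream, and Cxcr5, a receptor for homing to follicles, 9.64 and 11.4 at 1.11 kb upstream. Il17a, the cytokine of Th17 cells, had a region 9.80 kb downstream at chr1:20740452-20740947 with 14.5 and 15.6, and Il17f had 8.74 and 7.42 at 7.44 kb upstream. Neither Il17a nor Il17f had an open promoter. Of the Th1 list, Ccl5 had 6.66 and 6.61 at 4.22 kb upstream, likewise with a closed promoter, and Ifng and Tbx21 had no proximal region.

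Lists of other cell types were nearer to the background. The counts were 2 of 11 CD8 and natural killer genes, 2 of 12 B cell genes, 3 of 12 myeloid genes, 0 of 9 mast cell and basophil genes and 4 of 16 non-haematopoietic genes, while 4 of 13 housekeeping genes had a region. All 3 myeloid regions, at Itgam, Cebpe and Elane, lay beside closed promoters. Cebpe, a transcription factor of granulocytes, had 6.15 and 6.30 at 2.35 kb upstream, and this is the window with the CTCF match shown above. An open promoter was found at 15 of the 18 Th2 genes and 16 of the 18 activation genes, against 3 of 11 CD8 and natural killer, 3 of 12 B cell, 2 of 12 myeloid, 2 of 9 mast cell and basophil and 4 of 16 non-haematopoietic genes. Other lists did not follow their promoters in this way: all 13 housekeeping and all 15 JAK and STAT genes had an open promoter, with a proximal region at 4 and 6 of them, and 10 of 11 naive and memory genes did, with a region at 4. Of the 13 Th17 genes 6 had an open promoter and 5 a region. The parts of promoter state and of the sequence free around each gene in these counts were not tested. Over all 16 lists there were 130 regions, of which 87.7% had an open nearest promoter and 4.62% a CTCF match.

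**Figure D4:**
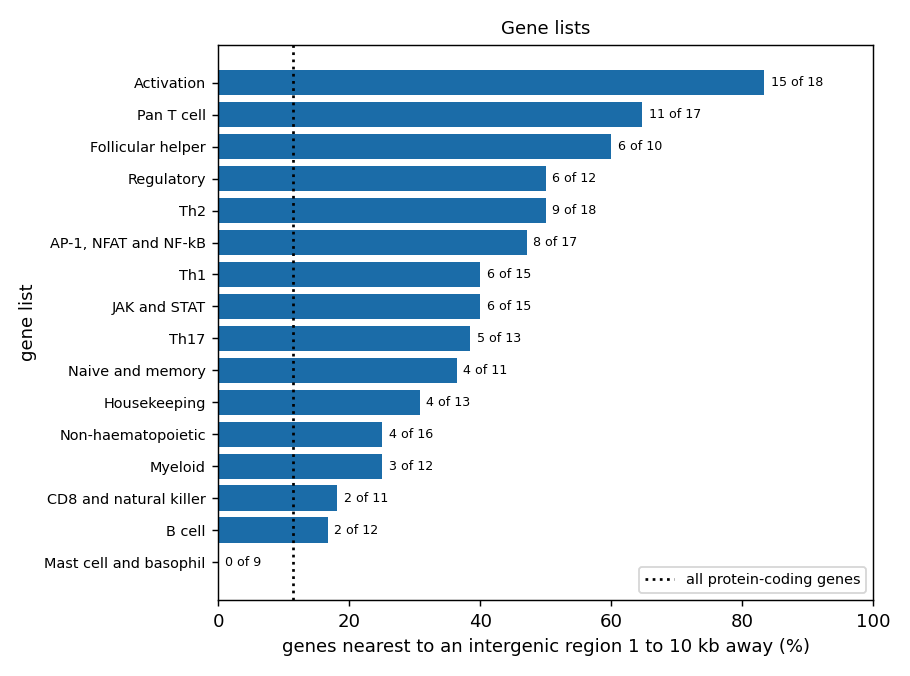
Share of the genes of each list that were the nearest gene of a proximal intergenic region (bars from 0, with the counts), and the share over all protein-coding genes (dotted line, 11.3%). Activation genes reach 83.3%, and mast cell and basophil genes 0%.

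Most nearest genes had a single region. There were 2071 genes with 1 region, 350 with 2, 46 with 3 and 4 with 4. Besides Thy1, the genes with 4 were Rgs1, Irf2bp2 and Gimap9. Rgs1, which restrains G protein signalling, had its strongest region 7.62 kb upstream with 8.49 and 11.2, against 5.31 and 5.72 at its promoter. Irf2bp2, a corepressor, and Gimap9, a GTPase of lymphocytes, had 4 regions each, none above its promoter in both replicates. The 46 genes with 3 regions included cytokine and chemokine genes besides Il10 and Il13. Il9, the cytokine of Th9 cells, had folds of 10.2 and 13.3 at 6.11 kb upstream and of 11.7 and 12.5 at 5.14 kb downstream, against 6.71 and 7.40 at its promoter. The region 6.69 kb downstream of Il9 had 3.60 and 3.88. Ccl17, a ligand of Ccr4, had 9.61 and 10.3 at 8.17 kb upstream and 7.90 and 7.70 at 6.73 kb upstream, with no open promoter. Csf2, the gene of the growth factor GM-CSF, had 4.36 and 4.61 at 4.68 kb upstream, and Tnfsf9, a TNF family ligand, had 8.24 and 12.2 at 3.39 kb downstream. The immediate early genes Egr1, Egr3, Ier2, Ier5, Npas4 and Jund were also among those with 3.

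Of 29 consensus sequences AP-1 was found most often. It was present in 18.9% of the 200 bp windows at the proximal summits (552 of 2925), against 3.23% of 5265 windows placed 1 kb from the summits of the same regions, a ratio of 5.84. The share was 3.21% within 1 kb of a start, 23.3% in gene bodies, 22.7% at 10 to 100 kb and 17.6% over all shared regions. CTCF was present in 12.9% (377 regions), against 2.34% in the flanking windows, a ratio of 5.52. Its share was 2.87% within 1 kb of a start, 7.38% in gene bodies, 10.01% at 10 to 100 kb, 3.51% beyond 100 kb and 6.78% over all. Of the 5 positions the proximal regions thus had the highest share of CTCF matches, while AP-1 matches were more frequent farther from starts and in genes.

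Base composition differs with position, since the median GC content was 50% at proximal windows, 65.5% within 1 kb of a start and 48.5% at 10 to 100 kb. Among windows of 45 to 55% GC, a range chosen after the data were seen, CTCF was present in 16.6% of the proximal windows, 10.9% of those at 10 to 100 kb and 2.24% of the flanking ones. AP-1 was present in 20.4%, 24.5% and 3.56% of these. The order of these 3 sets was thus the same in windows of similar composition. With the replicate 2 summits the proximal shares were 19.6% for AP-1 and 13.2% for CTCF.

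AP-1 and CTCF matches were seldom on the same region and went with different strengths. AP-1 was present in 9.28% of the regions with a CTCF match and in 20.3% of those without. From the weakest to the strongest 20% of the regions by fold enrichment, AP-1 shares were 12.3, 14.7, 16.6, 21.7 and 29.1%. CTCF shares over the same steps were 10.1, 15.7, 16.1, 14.7 and 7.86%, highest in the middle. Regions with AP-1 had median folds of 5.85 and 7.31, against 5.04 and 5.57 without. Regions with CTCF had 5.07 and 5.81, against 5.18 and 5.82 without, and were narrower, with a median width of 502 bp against 628 bp. CTCF was present in 11.9% of upstream and 17.8% of downstream regions, and AP-1 in 19.4% and 16.2%. CTCF shares were 8.19% at 1 to 2 kb from the start and 13.4% at 5 to 10 kb. Matches lay near the summit, at a median of 34.5 bp for AP-1 and 36.0 bp for CTCF.

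RUNX was present in 7.83% of the proximal windows, against 5.79% in flanking windows (9.23% and 5.24% in windows of 45 to 55% GC), and the ETS sequence CAGGAAGT in 5.47%, against 1.71%. Both were lower within 1 kb of a start (2.40 and 2.84%) and higher at 10 to 100 kb (9.42 and 6.45%). Over all shared regions they were present in 7.73 and 5.69%. STAT matches with a spacing of 3 were present in 10.8%, against 5.38% in flanking windows, and those with the spacing of 4 that STAT6 prefers in 6.29%, against 4.48%. GATA, the sequence of the Th2 regulator Gata3, was present in 10.7% at the summits and 10.1% in flanking windows, and in windows of 45 to 55% GC in 10.05% and 7.05%. NFAT was less frequent at the summits (3.59%) than in flanking windows (4.82%), also in windows of 45 to 55% GC (3.62% and 4.32%). Over all shared regions STAT matches were present in 10.1% with a spacing of 3 and in 5.84% with a spacing of 4. GATA was present in 9.31% and NFAT in 3.2% of all shared regions. The proximal shares of STAT, GATA and NFAT were thus only slightly above those of all shared regions. STAT matches with a spacing of 3 reached 12.5% at 10 to 100 kb and 3.92% within 1 kb of a start. None of AP-1, RUNX, both ETS sequences and CTCF was found in 1720 regions (58.8%), so exact matches covered less of the set than they left out. Short sequences such as those of GATA and RUNX occur often in any window, and the flanking share gives that level.

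**Figure D5:**
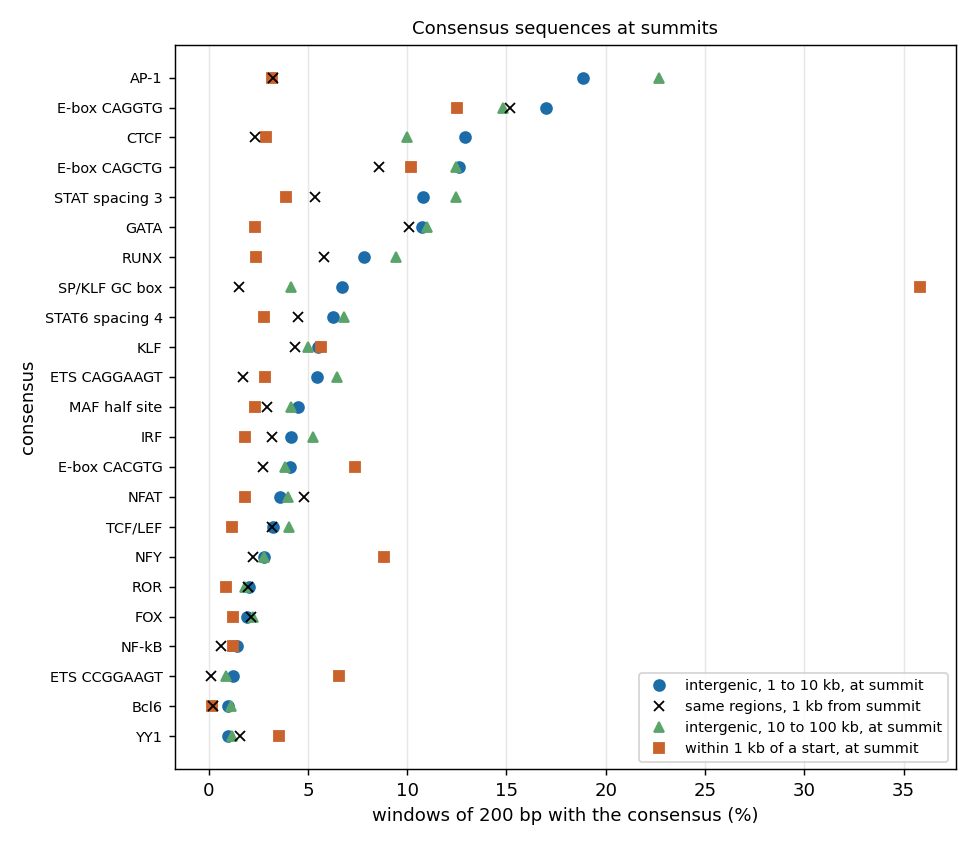
Share of 200 bp windows with each of 23 consensus sequences (those found in at least 29 proximal regions), at proximal summits, 1 kb from them, at summits 10 to 100 kb from a start and at summits within 1 kb of a start. AP-1 and CTCF stand farthest above the flanking windows in percentage points, and the GC box is far more frequent within 1 kb of a start (35.8%) than at proximal summits (6.70%).

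A smaller group of the regions resembled promoters in CpG content. The ratio of observed to expected CpG had a median of 0.255 at proximal windows and 0.825 within 1 kb of a start, and it exceeded 0.6 in 390 proximal regions (13.3%), against 79.2% within 1 kb of a start and 9.67% at 10 to 100 kb. These 390 regions had a median width of 842.5 bp and median folds of 5.66 and 6.48, and 22.3% held a GC box and 6.41% an AP-1 match. Among all proximal regions those shares were 6.70% and 18.9%. The GC box holds a CpG and the AP-1 sequence holds none. Since the same windows were chosen by their CpG ratio, part of this difference is built in. A start of a lncRNA gene lay within 1 kb of 135 proximal regions (4.62%), against 4.68% at 10 to 100 kb, 10.4% within 1 kb of a coding start and 1.55% in gene bodies. The 135 regions were wider than the others, with medians of 880 bp against 603.5 bp, while their folds of 5.21 and 5.72 stood beside 5.15 and 5.82. Any start of the full annotation lay within 1 kb of 290 regions (9.91%), and 299 of the CpG-rich regions had none. The Nr4a1, Nr4a3 and Zbtb18 regions described above were of this CpG-rich kind, with GC contents of 65.0, 74.0 and 74.0%. Bodies of lncRNA genes held 358 of the proximal regions (12.2%), against 8.85% of all shared regions, 13.9% at 10 to 100 kb and 22.5% beyond 100 kb. Pseudogenes held 26 (0.889%, against 0.549% of all shared regions) and small RNA genes 11 (0.376%, against 0.111%).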

How the data were processed

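ATAC-seq peaks were deposited by the authors as 1 list per library for 2 libraries of mouse Th2 cells, each called on that library alone and placed on mm10, per the file headers. Aligner, peak caller and transposase shift: not given in the sources used here. Words in the region names (ASTARR, insert, 96 hours) have no explanation in these sources; if cloned fragments were sequenced, the folds would describe those. The deposited fold enrichment is read as a ratio of signal to local background at the summit. The authors' −log10 p-value and −log10 q-value served for the recovery of counts and for a stricter threshold. The deposited score is 10 times −log10 q with a cap of 1000 and was not used. Depth is not stated. Whole summit counts that return the deposited fold and p under a Poisson model with a pseudocount of 1 (tolerance 0.01) were found for 100% of peaks in replicate 1 and 99.9984% in replicate 2.

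Peaks overlapping by at least 1 bp were joined, and regions in both lists were placed by their centres against the GENCODE M21 basic annotation, with starts of protein-coding transcripts and bodies of protein-coding genes. Eligible sequence was counted on a 50 bp grid. The 29 consensus sequences were searched on both strands; AP-1 can overlap the longer BATF-IRF composite, and STAT, ETS and GATA matches can share letters with others. Named regions were the 10 strongest by mean rank, the 5 widest, genes with the most regions (ties kept), all Th2 list regions, the 3 strongest of each other list, those at the distance limits, the 5 with the largest ratio to an open promoter and the 5 strongest beside a closed one. Some of these are not reported here by name. The regions, the 16 gene lists (219 symbols) and the consensus sequences were chosen with earlier results of these data known. No significance test was run, as there is 1 group. Scripts were tested on simulated data and used Python 3.11.15, pandas 2.3.3, numpy 2.4.6, scipy 1.17.1 and pysam 0.24.0.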

Additional observations from a re-analysis of the deposited data

How the results depend on the processing

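Of 112 alternative values under 18 settings 71 stayed within a set limit and 41 moved by more. The limit was the spread between the single lists or, for the number of regions, which has no such spread, 1.5 times. Whether a comparison changed its direction was not checked. At −log10 q of at least 10, 1682 regions were left, 66.4% had an open promoter, the width was 724 bp, the folds 6.65 and 7.54, and AP-1, ETS (CAGGAAGT), RUNX and CTCF were present in 21.6, 5.89, 8.38 and 12.0%. With gene 5′ ends alone as starts, 85.4% lay upstream, 68.9% had an open promoter and RUNX was at 7.96%; with bodies of all genes RUNX was at 8.19%. The starts of the full annotation, added after the data were seen, gave 73.5% upstream and 77.7% with an open promoter, and a promoter window of 2.5 kb gave 76.1%. Single lists without the requirement of sharing (without replicate 2 and without replicate 1) gave 3481 to 4335 regions, 81.9 to 83.6% upstream, 73.4 to 75.8% open, widths of 417 to 430 bp (the regions are then not joined), a fold of 4.66 in replicate 1 and of 4.80 in replicate 2, ETS 4.88 to 5.26%, RUNX 7.64 to 7.81% and a lncRNA start at 4.11 to 4.28%. Windows of 100 bp held AP-1, ETS, RUNX and CTCF in 12.2, 3.25, 4.72 and 9.09%, and windows of 400 bp in 23.3, 8.07, 12.6 and 14.8%. The replicate 2 summit gave 5.78% for ETS and 8.14% for RUNX. In windows of 45 to 55% GC (added later) ETS, RUNX and CTCF were at 7.52, 9.23 and 16.6%. Windows of 500 bp and 2.5 kb for the lncRNA start gave 3.52 and 8.96%. No paired analysis was possible because there is 1 group and no test. The depth is not stated, and 2 lists limit the precision of every value.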

Other observations

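Rarer consensus sequences gave shares outside the comparisons of the results. The BATF-IRF composite, an AP-1 site joined to an IRF site, was present in 0.684% of the proximal windows and 0.0380% of the flanking windows. Bcl6 was present in 0.991% and 0.228%, and the ETS sequence CCGGAAGT in 1.23% and 0.114%. The T-box sequence was present in 0.752% and 1.14%, and TCF/LEF in 3.25% and 3.19%. Few windows lie behind such shares: 20 proximal and 2 flanking ones held the BATF-IRF composite, and 22 and 60 the T-box sequence. In windows of 45 to 55% GC T-box was nearly level, at 1.23% and 1.20%, and TCF/LEF was at 3.49% and 2.68%. The first 3 were more frequent at the summits than beside them, in these windows too (0.547% and 0.0400%, 0.957% and 0.200%, 0.820% and 0.120%).

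The 123 regions with more than 50% repeat sequence held CTCF in 21.1%, against 12.5% of the other proximal regions, and AP-1 in 21.1%, against 18.8%. Of all shared regions on a chromosome, the share that was proximal intergenic ran from 4.32% on chromosome 16 to 9.43% on chromosome 11 among the autosomes.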
